A study of Mus musculus with 53 samples.

Results

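The 8 genes described here encode proteins that hold cells in, or take them out of, the cell division cycle. They are the CIP/KIP inhibitors Cdkn1a (p21), Cdkn1b (p27) and Cdkn1c (p57), the INK4 inhibitors Cdkn2c (p18) and Cdkn2d (p19), and the pocket proteins Rb1, Rbl1 (p107) and Rbl2 (p130). They were chosen by symbol, as rows of 55573 genes in the bulk tables and of 57010 genes in each single-cell gene table, and all 8 were found in both. The tissue was mouse cerebellum. Bulk RNA-seq at postnatal day 2 (P2) compared 4 Insm1 controls (Insm1fl/fl) with 4 Insm1 mutants (Atoh1Cre; Insm1fl/fl), and 3 Tead1/2 controls (Tead1fl/fl and Tead2fl/fl) with 4 Tead1/2 mutants that carried Atoh1Cre with the same 4 floxed copies. A single-cell RNA-seq experiment on cerebella of postnatal day 7 (P7) held 2 controls and 3 mutants of each allele. In each P7 group library 1 was dissected with all lobules, and the others were made without lobules IX and X. Each library came from 1 pup, and all animals, controls included, carried the floxed alleles, while Cre was present in mutants only. The Atoh1 promoter drives Cre mainly in granule cell progenitors and other rhombic lip derivatives, so other cell types of a mutant cerebellum keep the floxed genes largely intact.

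CIP/KIP proteins bind and block cyclin-CDK complexes of several phases, and INK4 proteins bind CDK4 and CDK6 and so block their pairing with D-type cyclins. When these kinases are inactive, pocket proteins stay unphosphorylated and hold E2F factors in a repressed state; Rbl1 and Rbl2 do so with E2F4 in the DREAM complex. In the postnatal cerebellum granule cell progenitors divide in the external granule layer under Sonic hedgehog, and Cdkn1b is known as a brake on that division. In skeletal muscle precursors Cdkn1a, Cdkn1c and Rb1 are known for permanent exit from the cycle as the cells differentiate. Cdkn1c is imprinted and is expressed mainly from the maternal copy, next to the noncoding RNA Kcnq1ot1.

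In GRCm38.p6 coordinates, Cdkn1a lies on chromosome 17 (29090979 to 29100722), Cdkn1b on 6 (134920401 to 134925525), Cdkn1c on 7 (143458339 to 143461059), Cdkn2c on 4 (109660876 to 109666756) and Cdkn2d on 9 (21288459 to 21291421). Rb1 lies on chromosome 14 (73192858 to 73325951), Rbl1 on 2 (157145893 to 157204534) and Rbl2 on 8 (91070057 to 91123844). In the annotation Lpar6 and Mir687 overlap Rb1, Gm14277 overlaps Rbl1 and Aktip overlaps Rbl2, and whether counting used the strand is not given in the sources used here. Reads of these overlapping genes could therefore be shared.

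The promoters of 2 of the 8 genes are shown: Cdkn1a, which was high in muscle-like cells at P7, and Rbl1, which was high in dividing progenitor-like cells. Each sequence is the RefSeq stretch from 250 bases before to 50 bases after an annotated start (GRCm38.p6), and entries were matched for Cdkn1a, Cdkn1b, Cdkn2c, Cdkn2d, Rbl1 and Rbl2. Capitals mark the E-box CANNTG, the letters bound by MyoD-type and many neuronal helix-loop-helix factors, in the 2 entries of Cdkn1a, and the E2F motif TTTCGCGC in Rbl1. Both motifs were searched on both strands.
Cdkn1a first start, chr17:29090729-29091028, plus strand: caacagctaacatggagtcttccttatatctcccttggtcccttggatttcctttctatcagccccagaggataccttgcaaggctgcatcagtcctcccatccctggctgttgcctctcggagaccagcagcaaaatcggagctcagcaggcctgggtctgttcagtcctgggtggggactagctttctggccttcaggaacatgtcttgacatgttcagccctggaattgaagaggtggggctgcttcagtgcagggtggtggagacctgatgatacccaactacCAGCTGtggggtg
Cdkn1a second start, chr17:29093519-29093818, plus strand: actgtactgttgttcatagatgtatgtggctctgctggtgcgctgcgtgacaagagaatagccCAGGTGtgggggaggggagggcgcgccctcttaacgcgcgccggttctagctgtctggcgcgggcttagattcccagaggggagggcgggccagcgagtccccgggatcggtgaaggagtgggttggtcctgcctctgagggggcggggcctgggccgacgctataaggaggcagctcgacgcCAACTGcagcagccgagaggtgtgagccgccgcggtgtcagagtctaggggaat
Rbl1, chr2:157204485-157204784, minus strand: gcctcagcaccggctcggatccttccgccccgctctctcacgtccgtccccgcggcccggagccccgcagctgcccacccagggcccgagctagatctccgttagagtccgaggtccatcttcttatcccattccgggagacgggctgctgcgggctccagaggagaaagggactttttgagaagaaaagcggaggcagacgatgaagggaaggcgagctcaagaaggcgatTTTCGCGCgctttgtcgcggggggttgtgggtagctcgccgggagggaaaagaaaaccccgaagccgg
The Cdkn1a entries hold 1 and 2 E-boxes, and the Rbl1 entry holds 1, which is not in capitals. An E-box was present in 72.3% of 32851 promoters of the same length, so its presence is common. TTTCGCGC was present in 0.323% of them, and the Rbl1 entry holds 1 match. The entries of Cdkn1a, Cdkn1b, Cdkn2c, Cdkn2d and Rbl2 hold 0. A match describes these letters and is not a site.

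Bulk libraries held 2.81e+07 to 6.45e+07 counts, and the P7 libraries gave 4662 to 10423 kept cells with a median of 6661 to 9868 UMIs (single transcript counts) per cell. At P2, gene-level Insm1 was 30.8 to 71.9 CPM (counts scaled to library size) in Insm1 controls and 8.48 to 16.2 CPM in Insm1 mutants, which did not overlap. Tead1 overlapped between Tead1/2 controls and mutants (34.6 to 53.7 and 36.8 to 49.9 CPM). Tead2 was 23.3, 25.6 and 22.3 CPM in Tead1/2 controls and 19.4, 19.4, 17.3 and 25.7 CPM in mutants, so that only the library labelled mutant 4 was not below every control (edgeR adjusted p = 0.314 over all 7). At P7 Tead2 was 30.2 to 31.7 CPM in controls and 7.22 to 9.08 CPM in mutants, while Tead1 was higher in the libraries labelled mutant (1126 to 1324 CPM) than in controls (631.8 to 632.4 CPM). Gene-level counts do not measure the deleted exons alone. The library labelled Tead1/2 mutant 4 at P2 stood apart: its Tead2 goes against its label, the muscle factor Myog was 0.411 CPM there, close to the 0.198 to 0.319 CPM of the controls, and its Cdkn1c also lay among theirs. It was singled out after these values were seen, so results rest on all libraries, and values without it are descriptions, not independent tests. Per the labels Insm1 libraries formed batch2 and Tead1/2 libraries batch3, so allele and batch cannot be told apart at P2, and each allele was compared with its own controls. Sexes were not balanced over groups by Xist and Ddx3y, and the effect of a sex term is given where it changed a call. At P2 the library labelled Tead1/2 mutant 4 was the only female among the Tead1/2 mutants. Values without it set male mutants against controls of both sexes.

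At P2, Cdkn1c was the 1 member that rose in Insm1 mutants, where its level was 1.73-fold that of controls. The 4 Insm1 control libraries had 98.2, 92.5, 96.1 and 72.7 CPM of Cdkn1c, while the mutant libraries had 175, 144, 145 and 157 CPM. Every mutant lay above every control. The log2 change was 0.79 (SE 0.105, n = 4 and 4, edgeR adjusted p = 0.00733), and the call held in all 14 alternative analyses. By edgeR 0.689% of 19582 tested genes were called at an adjusted p under 0.05, 0.480% higher and 0.209% lower, and 1 of the 8 members was called. Because this is whole tissue, more cells of a type and more RNA per cell cannot be told apart. Of the skeletal muscle list, 28 of 37 tested genes rose in the same comparison (median log2 change 2.60; all tested genes 0.00607), and the part of these transcripts in the Cdkn1c change was not tested.

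In the Tead1/2 comparison Cdkn1c was high in 3 of the 4 mutant libraries. The 3 Tead1/2 controls had 85.2, 88.3 and 93.2 CPM, and the mutants had 173, 174, 182 and 90.2 CPM. The 90.2 CPM is the library labelled mutant 4, which lay within the range of the controls. With all 7 libraries the log2 change was 0.80 (SE 0.198, edgeR adjusted p = 0.101); here 0 of 20247 tested genes were called by edgeR (0% called), while 4052 had an unadjusted p under 0.05 and DESeq2 called 955. Of 14 alternatives 10 did not call it (edgeR adjusted p up to 0.280); of the other 4, 1 used no low-count filter, 2 left out the library labelled mutant 4, and the replicate block gave that library no partner. Without that library the difference was 0.99 on the log2 scale (n = 3 and 3, against 3.19% of 20234 genes called, 1.98% higher and 1.22% lower); its own low Cdkn1c is part of why it was left out, so this value is no independent support. The muscle list followed the same libraries, with 0 of 36 genes called over all 7 (median log2 change 1.88) and 25 of 36 higher without the library labelled mutant 4 (median 2.21), which was singled out by a muscle gene among others. The change in Insm1 mutants minus that in Tead1/2 mutants was -0.02 on the log2 scale for Cdkn1c (approximate 95% interval -0.488 to 0.451, edgeR adjusted p = 0.995). In this interaction edgeR called 0 of 20837 genes, 1435 had an unadjusted p under 0.05 and DESeq2 called 17.

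The other CIP/KIP inhibitors did not pass the test at P2. Cdkn1a had 45.3, 35.4, 29.95 and 40.1 CPM in Insm1 controls and 25.03, 37.4, 30.1 and 37.4 CPM in Insm1 mutants, and the groups overlapped (log2 change -0.22, SE 0.152, edgeR adjusted p = 0.705). In Tead1/2 controls Cdkn1a had 26.1, 32.9 and 26.7 CPM, and mutants had 23.3, 22.9, 22.4 and 28.6 CPM. The highest of these mutant values is again the library labelled mutant 4. With all 7 libraries the log2 change was -0.24 (SE 0.103, edgeR adjusted p = 0.234), and without the library labelled mutant 4 it was -0.32, which edgeR did not call (adjusted p = 0.0796) and DESeq2 did (adjusted p = 0.0216; DESeq2 called 5.95% of genes, 3.26% higher and 2.68% lower). For Cdkn1b, the inhibitor best known from granule cell progenitors, the ranges were 67.5 to 83.8 CPM in Insm1 controls, 64.3 to 75.2 CPM in Insm1 mutants, 85.6 to 101 CPM in Tead1/2 controls and 88.5 to 94.9 CPM in Tead1/2 mutants. The ranges overlapped within both alleles.

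**Figure D1:**
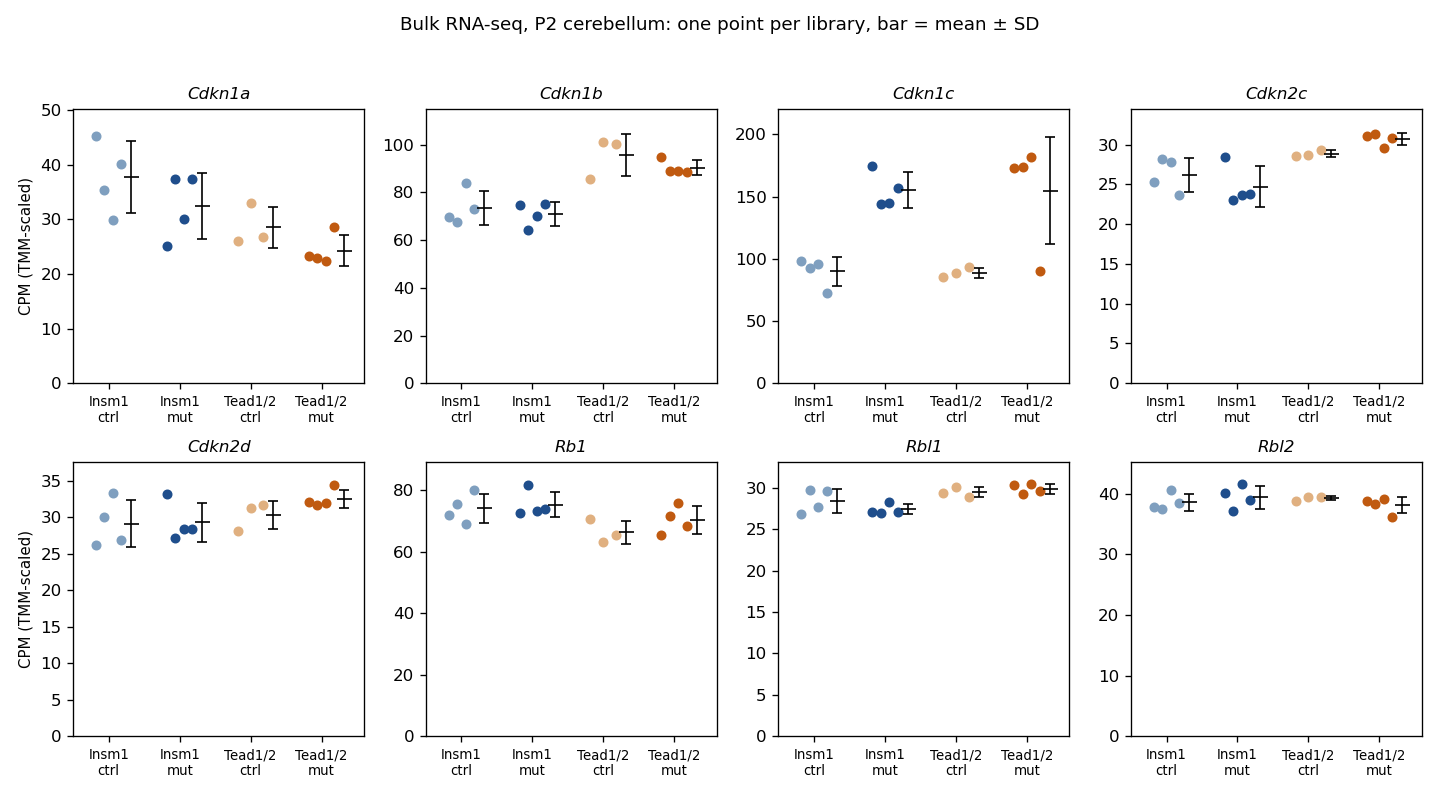
Level of each member in the P2 bulk libraries, in CPM with TMM-scaled library sizes on the y axis, 1 point per library in number order, with mean and SD as bars, for the control and mutant libraries of the Insm1 allele (4 and 4) and of the Tead1/2 alleles (3 and 4). In the Cdkn1c panel the 4 Insm1 mutants and 3 of the 4 Tead1/2 mutants stand at 144 CPM or more, above every control, with the library labelled Tead1/2 mutant 4 at 90.2 CPM among the control values.

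The INK4 inhibitors and the pocket proteins differed little at P2. Over Cdkn2c, Cdkn2d, Rb1, Rbl1 and Rbl2 the log2 changes lay between -0.09 (Cdkn2c) and 0.03 (Rbl2) in Insm1 mutants, and between -0.04 (Rbl2) and 0.10 (Cdkn2d) in Tead1/2 mutants. Cdkn2c was 28.5 to 29.3 CPM in Tead1/2 controls and 29.6 to 31.4 CPM in Tead1/2 mutants; these ranges did not overlap, yet the log2 change of 0.09 was not called (edgeR adjusted p = 0.333). Its 95% interval was -0.00681 to 0.186. For Rb1 the interval was -0.109 to 0.158 in Insm1 mutants and -0.0362 to 0.203 in Tead1/2 mutants. A change of the size of that of Cdkn1c is outside these intervals.

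Other cell cycle genes at P2 were described by lists. In Insm1 mutants no gene was called among 10 G1 cyclins and kinases (median log2 change -0.03), 15 E2F and DREAM genes (-0.08), 11 genes of inhibitor turnover (-0.05), 15 genes of p53 and its targets (0.000428), 12 antiproliferative genes (0.07), 19 mitosis and replication genes (-0.13) and 5 neighbours of Cdkn1c in the imprinted Kcnq1ot1 domain (0.01). The smallest p in the G1 list belonged to Ccnd1 (log2 change 0.27, edgeR adjusted p = 0.168), and in the mitosis list to Mki67, a marker of dividing cells (-0.26, adjusted p = 0.28). Kcnq1ot1 itself changed by 0.16 (edgeR adjusted p = 0.752). In Tead1/2 mutants without the library labelled mutant 4, edgeR called the D-type cyclin Ccnd1 higher (0.52, adjusted p = 0.00516) and Cdk6 lower (-0.43, 0.0406) of 10 G1 genes, Gas1 (0.54, 0.00144) and Gas2 (0.67, 0.0471) higher of 12 antiproliferative genes, and Cdk1 higher (0.32, 0.0388) of 19 mitosis genes. None of these was called with all 7 libraries, and since that library was left out after its values were seen, these calls are descriptions. Over all 7, the 2 smallest p of the mitosis list were those of Cdk1 (0.29, adjusted p = 0.0898) and Ccnb1 (0.26, 0.0904).

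The 5 genes most alike Cdkn1c over the 15 P2 libraries, by Pearson correlation of log2 CPM after each allele was centred on its own mean, were Lhfp (r = 0.986), Car3 (0.986), Sln (0.975), Mymx (0.974) and Cdh15 (0.974). Sln encodes a regulator of the calcium pump of muscle, Mymx a peptide of myoblast fusion and Cdh15 the muscle cadherin. These correlations are descriptions; all share the same libraries and the same library labelled mutant 4.

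At P7, 77236 cells were kept and fell into 33 clusters, with the 8 members left out of the genes that set the clusters. Clusters were named by preset markers: 19956 cells were granule progenitor-like, 12268 granule neuron-like, and 11088 skeletal muscle-like. Of the muscle-like clusters, 19 and 30 (4594 cells, medians of 6642 and 6879 UMIs) were as deep as the granule cells, while 2, 4 and 29 (6494 cells) had medians of 17801 to 52676 UMIs. Clusters 19 and 30 together made up 2 of 10423 cells of Insm1 control 1 and 0 of 8255, 9390 and 6189 cells in the other 3 controls, against 8.28% to 8.77% of cells in Insm1 mutants and 10.5% to 14.9% in Tead1/2 mutants. No barcode was shared between libraries.

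Cdkn1c and Rb1 were at their highest, over the 33 clusters, in these muscle-like cells, and Cdkn1a was high in them. Summed over clusters 19 and 30, Cdkn1c was 1397, 1449 and 1392 CPM in Insm1 mutants and 904, 1371 and 1503 CPM in Tead1/2 mutants. In granule progenitor-like cells of controls its mean was 6.84 CPM (Insm1) and 4.35 CPM (Tead1/2). Between the muscle-like clusters, Cdkn1c was 1221 CPM in cluster 19, where Mki67 was 408 CPM. In cluster 30 Cdkn1c was 1781 CPM, Mki67 was 38.4 CPM and the muscle list, 40 genes in all, summed to 41939 CPM. Mki67 in such clusters varied with the clustering. Without the muscle list genes, a muscle-like cluster of 3565 cells (median 5954 UMIs) had Cdkn1c at 1858 CPM and Mki67 at 52.3 CPM. Another, of 1075 cells (median 16970 UMIs), had 816 and 614 CPM. These levels describe clusters and carry no test, since clusters are formed from the genes of the same cells.

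Rb1, the pocket protein of the retinoblastoma tumour suppressor, had 1280, 1341 and 1234 CPM in clusters 19 and 30 of the Insm1 mutants. In the Tead1/2 mutants the values were 1586, 1317 and 1342 CPM. Over the granule progenitor-like, granule neuron-like, GABAergic interneuron-like, astroglia-like, oligodendrocyte lineage-like and microglia-like classes the group means of Rb1 lay between 168 and 319 CPM. Cdkn1a was 222, 228 and 199 CPM in muscle-like clusters 19 and 30 of Insm1 mutants and 156, 160.0 and 166 CPM in those of Tead1/2 mutants, against means of 2.47 and 2.72 CPM in granule progenitor-like cells of the controls. The deep muscle-like clusters 2, 4 and 29 had Cdkn1a at 122, 170 and 399 CPM, beside 145 CPM in cluster 19 and 292 CPM in cluster 30. Their Cdkn1c was 320, 477 and 662 CPM and their Rb1 408, 525 and 482 CPM, each below clusters 19 and 30 (Rb1 1234 and 1686 CPM). Cluster 2 also carried 8 oligodendrocyte lineage markers and cluster 4 carried 4 GABAergic interneuron markers, with Mki67 at 439 and 455 CPM. The part of transcripts from other cells in these lower values was not tested.

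The dividing-cell members showed another order. Rbl1 was 131 CPM in progenitor-like cluster 13 (Mki67 1333 CPM), 34.4 CPM in muscle-like cluster 19, 18.2 CPM in neuron-like cluster 21 (Mki67 55.3 CPM) and 8.46 CPM in muscle-like cluster 30. Cdkn2c was 37.0 CPM in cluster 13, 11.6 CPM in cluster 19, 3.53 CPM in cluster 30 and 2.03 CPM in cluster 21. Over the 33 clusters Rbl1 and Cdkn2c had a Pearson r of 0.82, Cdkn1a and Rb1 one of 0.80, and Cdkn1a and Cdkn1c one of 0.80; clusters share libraries and depth, so these are descriptions. Rbl2 was 25.6 CPM in cluster 21 and 49.5 CPM in cluster 19, and it was 87.7 and 98.7 CPM in microglia-like clusters 25 and 26. Cdkn1b was 116 CPM in cluster 13, 115 CPM in neuron-like cluster 15, 77.0 CPM in cluster 19 and 42.8 CPM in cluster 30. Cdkn2d was at most 7.07 CPM in any cluster.

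**Figure D2:**
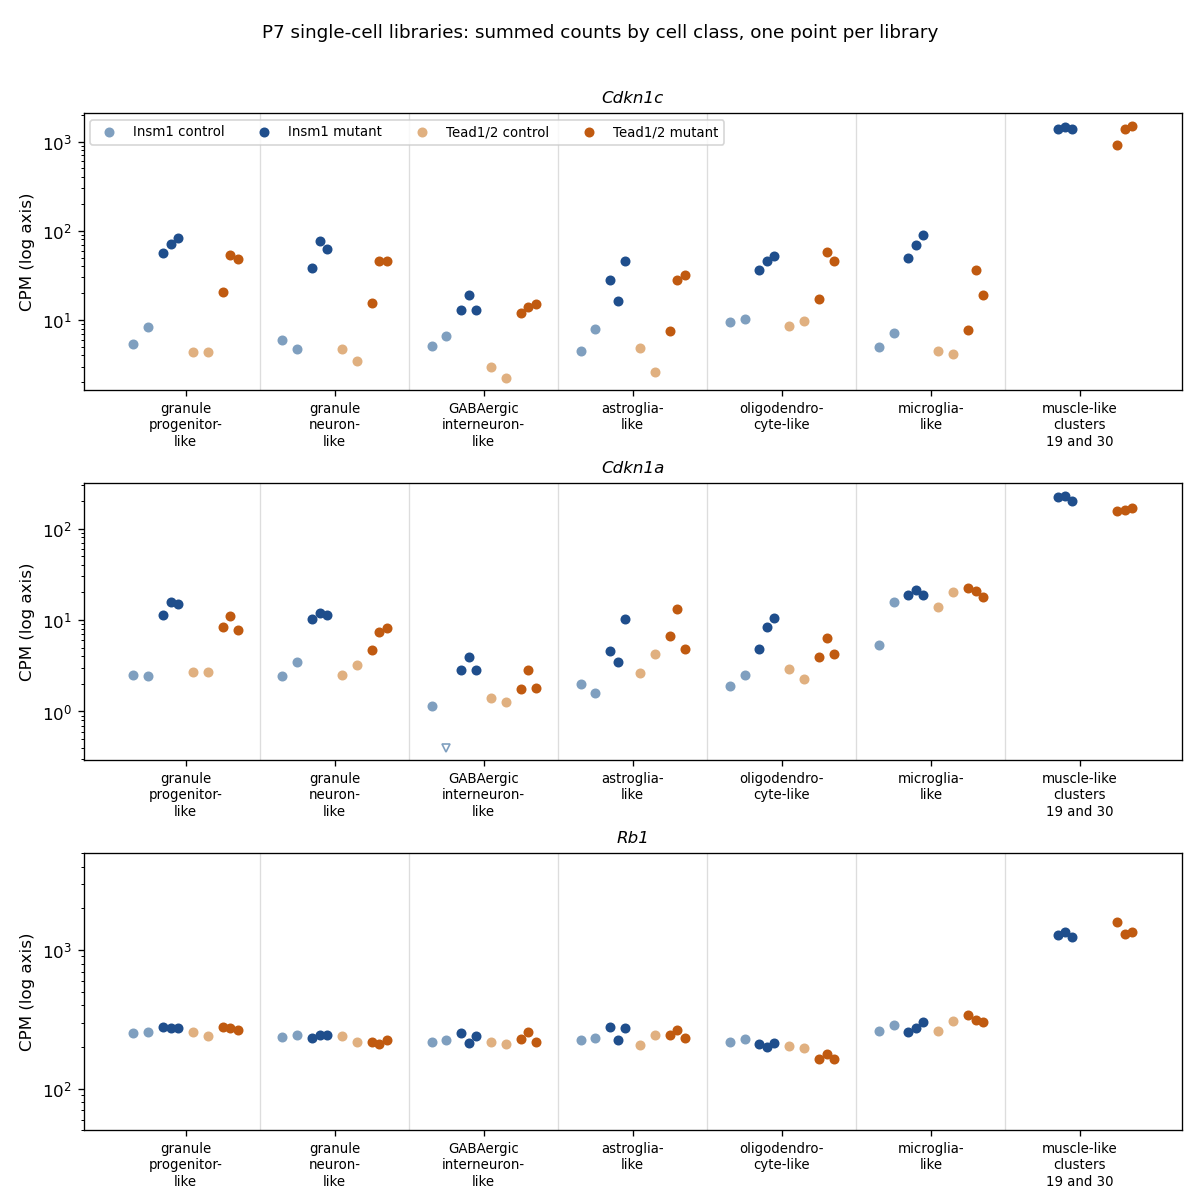
CPM of Cdkn1c, Cdkn1a and Rb1 by cell class at P7 on log axes, from counts summed over the cells of a class in a library, 1 point per library with at least 20 such cells, coloured by group; the open triangle stands for a count of 0. Cdkn1c is at 904 to 1503 CPM in muscle-like clusters 19 and 30 of the mutants, where the controls have at most 2 cells and no point.

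The 3 genes most alike each member over the clusters were taken by Pearson correlation among 12715 genes. For Cdkn1c they were Lincmd1 (r = 0.962), Klhl31 (0.947) and Gm34095 (0.926), and for Cdkn1a Marveld2 (0.961), Actc1 (0.951) and Tnnt1 (0.948). Lincmd1 is a muscle noncoding RNA, and Actc1 and Tnnt1 encode sarcomere proteins. For Rb1 they were Efcab3 (0.900), Mymx (0.898) and Ncoa2 (0.887). For Cdkn2c they were Kif14 (0.956), Nfatc2ip (0.932) and Fut10 (0.928), and for Rbl1 Pold3 (0.922), Zfp367 (0.921) and Uhrf1 (0.919); Kif14 acts in cytokinesis, and Pold3 and Uhrf1 act in DNA replication. For Cdkn1b they were Cog7 (0.917), Nfyb (0.904) and Ncoa5 (0.896), and for Rbl2 Dcxr (0.914), Pcnx3 (0.911) and Adam17 (0.908). Cdkn2d did not reach the 20 CPM needed for this comparison.

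Counts summed over all kept cells of a library gave the change in the dissected tissue at P7, cell composition included. Library 1 of each group held all lobules and the others lacked lobules IX and X. The main fit had no term for this dissection. Cdkn1a, Cdkn1c and Rb1 rose, and Cdkn1b, Cdkn2c, Cdkn2d and Rbl1 fell, in both Insm1 and Tead1/2 mutants. Cdkn1a was 3.62 and 3.69 CPM in Insm1 controls and 71.9, 77.3 and 71.9 CPM in Insm1 mutants, a log2 change of 4.33 (SE 0.130, n = 2 and 3, edgeR adjusted p = 3.73e-08). Its values were 3.85 and 3.94 CPM in Tead1/2 controls and 133, 129 and 99.96 CPM in Tead1/2 mutants (log2 change 4.96, SE 0.135, edgeR adjusted p = 1.04e-08). Neither pair of groups overlapped.

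Cdkn1c was 8.03 and 12.1 CPM in Insm1 controls and 199, 236 and 242 CPM in Insm1 mutants (log2 change 4.49, SE 0.289), and 7.45 and 6.03 CPM in Tead1/2 controls and 239, 439 and 311 CPM in Tead1/2 mutants (5.61, SE 0.309). Rb1 went from 252 and 246 to 369, 375 and 371 CPM in Insm1 (log2 change 0.58), and from 241 and 232 to 402, 458 and 364 CPM in Tead1/2 (0.79). For Rbl1 the change was the other way, from 81.9 and 81.8 to 56.8, 51.8 and 52.8 CPM in Insm1 (-0.60), and from 88.1 and 85.8 to 52.4, 45.6 and 49.0 CPM in Tead1/2 (-0.83). For all 3 genes the mutants and the controls did not overlap in either allele. The share of all tested genes without overlap is not given here, so this, as for Cdkn1a, only describes the values.

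The remaining members fell by less than 1.1 on the log2 scale or were not called. Cdkn1b changed by -0.46 in Insm1 and -0.81 in Tead1/2 mutants, Cdkn2c by -0.59 and -1.05, and Cdkn2d by -0.58 and -0.69 (edgeR adjusted p = 0.0488 and 0.0176 for Cdkn2d). The Insm1 call of Cdkn2d was lost in 11 of 19 alternatives, a sex term among them (edgeR adjusted p = 0.0769). Rbl2 was not called (0.03 and -0.12). These counts of 7 called members of 8 stand beside 33.4% of 24251 genes called in Insm1 (18.2% higher, 15.2% lower) and 48.3% in Tead1/2 mutants (25.8% higher, 22.6% lower). In the same sums 40 of 40 muscle genes rose (median log2 change 5.91 and 7.41), and 18 and 19 of 19 mitosis genes fell (median -0.54 and -0.91). Of the G1 list Ccnd3, the D-type cyclin of differentiating muscle, rose (1.70 and 2.23) and Ccnd2, that of granule cell progenitors, fell (-1.09 and -1.23). Kcnq1ot1 rose by 0.51 and 0.73, and Pmaip1, a p53 target, by 3.99 and 4.78. They are single genes of lists whose tallies in these sums are not given here.

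**Figure D3:**
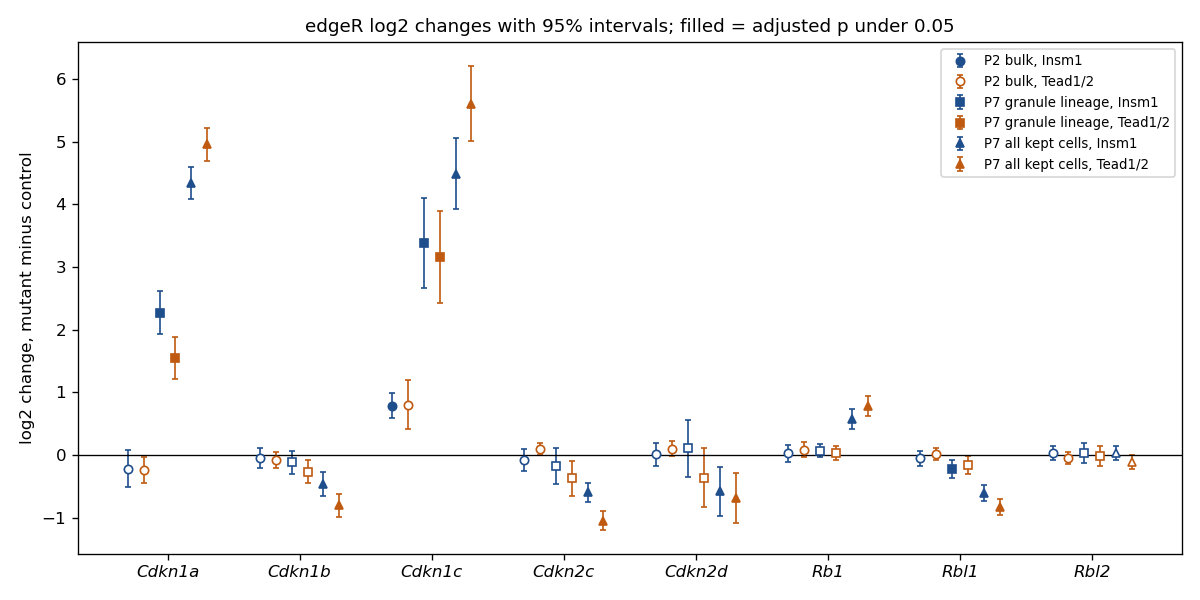
The edgeR log2 change (mutant minus control, y axis) of each member with its 95% interval, at P2, in granule-lineage cells at P7 and in all kept cells at P7; filled symbols have an adjusted p under 0.05. Cdkn1c is filled in 5 of the 6 comparisons and open at P2 in Tead1/2 mutants (adjusted p = 0.101 with all 7 libraries), and Cdkn1a is filled in the 4 at P7.

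The granule lineage, that is granule progenitor-like and granule neuron-like cells summed (32224 cells), was then compared without the muscle-like clusters. Unnamed clusters (14839 cells) were also left out. They held 29.7% to 30.9% of cells in Insm1 controls and 14.2% to 18.9% in Insm1 mutants. In the Tead1/2 groups they held 21.8% to 22.7% and 10.2% to 11.6%. Among them cluster 11 (3901 cells, mostly control) was best matched to granule progenitors and cluster 32 (1770 cells, mostly mutant) to granule neurons. Unnamed clusters 1 (3409 cells) and 16 (5663 cells) were also best matched to granule progenitors. Their second matches were astroglia and GABAergic interneurons. Cdkn1c rose 10.4-fold in Insm1 and 8.93-fold in Tead1/2 mutants, and Cdkn1a rose 4.83-fold and 2.93-fold. Cdkn1c was 5.76 and 7.08 CPM in Insm1 controls and 49.3, 75.3 and 74.9 CPM in Insm1 mutants (log2 change 3.38, SE 0.368, n = 2 and 3, edgeR adjusted p = 3.37e-05). In Tead1/2 controls it was 4.48 and 4.08 CPM, and in Tead1/2 mutants 18.8, 49.9 and 46.1 CPM (3.16, SE 0.374, edgeR adjusted p = 5.65e-05). The lowest mutant value of each allele is mutant 1, the library dissected with all lobules, and mutants also exceeded controls within the libraries made without lobules IX and X (7.08 against 74.9 and 75.3 CPM, and 4.08 against 46.1 and 49.9 CPM). Of 17079 tested genes 20% were called in Insm1 (11.9% higher, 8.12% lower) and 21.9% in Tead1/2 (12.9% higher, 8.95% lower), and of the 8 members 3 (2 higher, 1 lower) and 2 (both higher).

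Cdkn1a was 2.55 and 2.85 CPM in Insm1 controls and 11.1, 14.4 and 13.4 CPM in Insm1 mutants (log2 change 2.27, SE 0.175, edgeR adjusted p = 2.17e-06). It was 2.68 and 2.91 CPM in Tead1/2 controls and 7.09, 9.78 and 7.56 CPM in Tead1/2 mutants (1.55, SE 0.173, edgeR adjusted p = 3.51e-05). The Insm1 change exceeded the Tead1/2 change by 0.72 (95% interval 0.245 to 1.20), which was not called over all genes (edgeR adjusted p = 0.258). For Cdkn1c the difference between the changes was 0.23 (-0.747 to 1.20, adjusted p = 0.940). This interaction called 1.14% of genes (0.644% higher, 0.492% lower in Insm1) and 0 of the 8 members; 1819 genes had an unadjusted p under 0.05, and DESeq2 called 415 genes.

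Levels in cells that Atoh1Cre does not target were measured in the same libraries. In GABAergic interneuron-like cells (6243 cells) the mean of Cdkn1c was 5.90 CPM in Insm1 controls and 14.998 CPM in Insm1 mutants, and 2.62 and 13.7 CPM in the Tead1/2 groups. The corresponding unscaled means in the granule lineage were 6.33 and 65.5 CPM, and 4.25 and 39.4 CPM, so granule-lineage cells exceeded the interneurons in every mutant library (47.8 against 13.1 CPM in Insm1 mutant 1, the closest of the Insm1 mutants, and 19.2 against 11.9 CPM in Tead1/2 mutant 1). Oligodendrocyte lineage-like cells went from 9.86 to 44.5 and from 9.22 to 40.4 CPM, and microglia-like cells from 6.07 to 69.5 and from 4.35 to 20.9 CPM. The granule lineage was thus not above every such class. In Insm1 mutants the microglia-like mean (69.5 CPM) was above that of the granule lineage (65.5 CPM). In Tead1/2 mutants the oligodendrocyte lineage-like mean (40.4 CPM) was near that of the granule lineage (39.4 CPM). Microglia-like cluster 25, whose cells had a median of 4732 UMIs, held 0 Cdkn1c counts in Insm1 controls, 5.37 CPM in Insm1 mutants, and 2.94 and 11.2 CPM in the Tead1/2 groups. The muscle list rose beside these values, from 90.6 to 294 and from 103 to 561 CPM in the granule lineage and from 87.4 to 168 and from 92.3 to 447 CPM in the interneurons. Per 100 UMIs of the muscle list, Cdkn1c had 22.1 UMIs in the granule lineage, 11.6 in muscle-like clusters 19 and 30 and 8.87 in the interneurons of Insm1 mutants, and 7.08, 6.89 and 3.09 UMIs in those of Tead1/2 mutants. The oligodendrocyte lineage-like and microglia-like cells had 21.3 and 24.2 UMIs in Insm1 mutants, as many as the granule lineage, and 9.83 and 3.92 UMIs in Tead1/2 mutants. The part of transcripts from other cells in the granule-lineage values was not tested.

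Cells of the granule lineage without any UMI of the muscle list (14055 cells) were compared as an alternative chosen after seeing the data. In them Cdkn1c had unscaled means of 6.36 and 21.3 CPM in Insm1 controls and mutants and of 4.18 and 21.1 CPM in the Tead1/2 groups, and edgeR called the rise in both alleles. Cdkn1a was not called there (log2 change 0.75, edgeR adjusted p = 0.140, in Insm1, and 0.26, adjusted p = 0.755, in Tead1/2), with means of 3.11 and 4.87 CPM, and of 2.97 and 3.34 CPM.

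Within single clusters the Cdkn1c difference depended on which clusters the cells lay in. Of granule progenitor-like cells, 72.5% of those of Insm1 controls and 70.8% of those of Tead1/2 controls lay in cluster 13, whereas clusters 14 and 24 held 49.8% and 29.01% of those of Insm1 mutants and 12.6% and 58.2% of those of Tead1/2 mutants. Cdkn1c was 82.5 and 63.8 CPM in the Insm1 and Tead1/2 mutant cells of cluster 14 and 73.4 and 48.1 CPM in those of cluster 24. In cluster 12, which every group shared, it was 7.37 CPM in Insm1 control and 19.1 CPM in Insm1 mutant cells, and 4.62 and 16.1 CPM in the Tead1/2 groups. In cluster 13 it was 6.38 and 7.96 CPM, and 4.31 and 7.61 CPM. In neuron-like cluster 17, with 74.6% and 51.7% of the granule neuron-like cells of the mutants, Cdkn1c was 68.2 and 50.3 CPM in mutant cells. GABAergic interneuron-like clusters 20 and 23 had 14.9 and 15.9 CPM in Insm1 mutants and 16.8 and 11.5 CPM in Tead1/2 mutants, near the values of cluster 12. Cdkn1a was 13.03 and 13.9 CPM in mutant cells of cluster 14 and 12.5 and 8.22 CPM in those of cluster 17, while in cluster 12 it was 1.54 and 2.39 CPM in Insm1 control and mutant cells and 2.25 and 4.91 CPM in the Tead1/2 groups. The muscle factor Myog was 22.8 and 19.3 CPM in mutant cells of cluster 14 and 3.99 and 3.51 CPM in those of cluster 12.

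**Figure D4:**
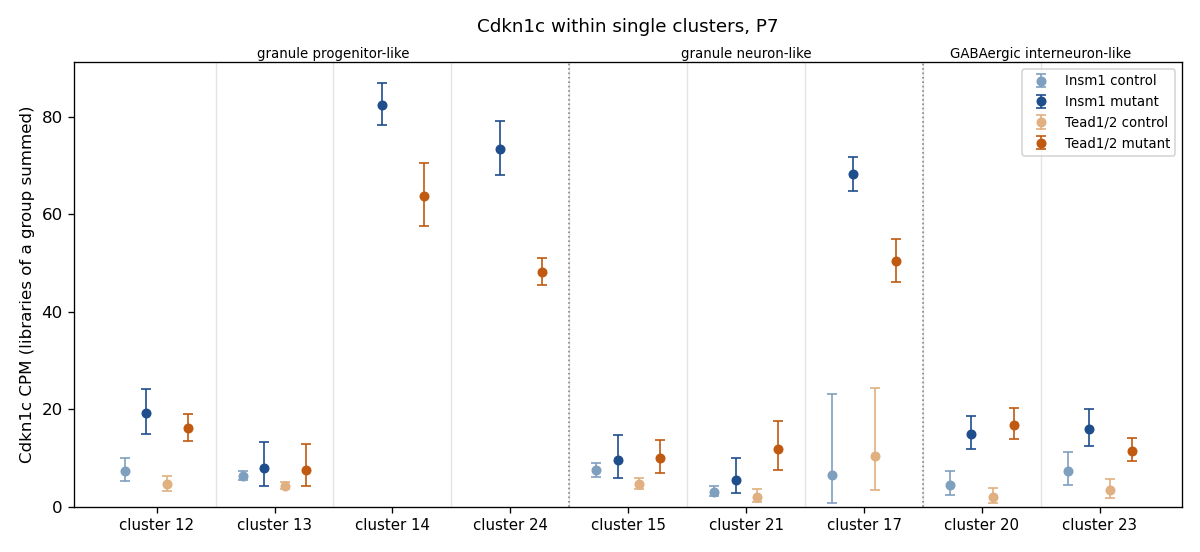
Cdkn1c CPM (y axis, libraries of a group summed) within granule progenitor-like, granule neuron-like and GABAergic interneuron-like clusters at P7, with exact Poisson 95% intervals that cover counting error only, for group and cluster pairs above 200000 UMIs. Mutant cells of clusters 14, 24 and 17 lie between 48.1 and 82.5 CPM, and those of clusters 12, 13, 15, 21, 20 and 23 at 19.1 CPM or less.

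**Figure D5:**
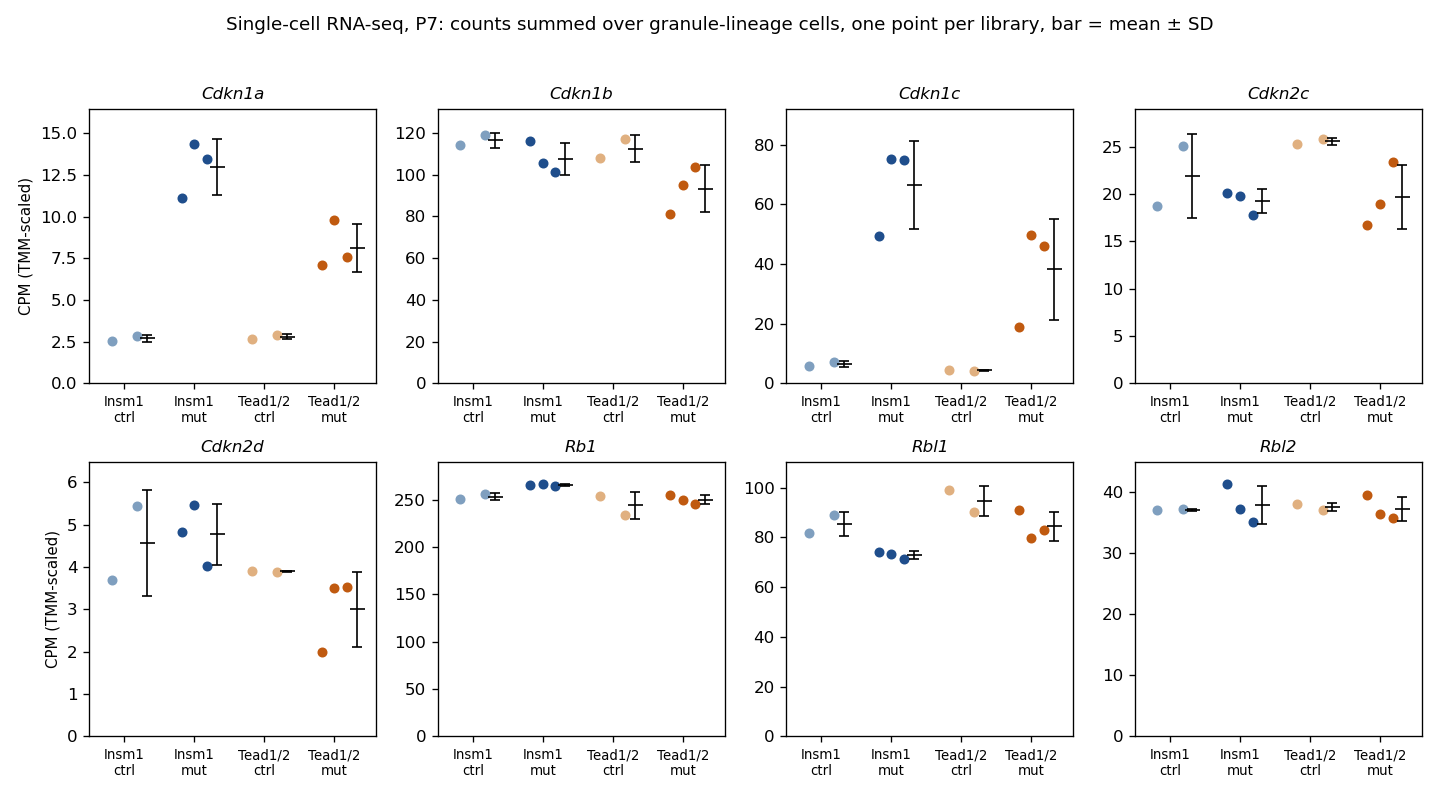
Level of each member in the granule lineage at P7, in CPM with TMM-scaled library sizes on the y axis, 1 point per library in number order with mean and SD, for 2 controls and 3 mutants of each allele. Cdkn1a and Cdkn1c are the panels in which all mutants of both alleles stand far above the controls, while Rb1 lies between 234 and 266 CPM in all 10 libraries.

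Of the other members in the granule lineage, 1 was called, Rbl1 in Insm1 mutants. Rbl1 was 81.9 and 88.9 CPM in Insm1 controls and 74.2, 73.5 and 71.2 CPM in Insm1 mutants; the log2 change of -0.23 (SE 0.0722) was called at an edgeR adjusted p of 0.0451 and was lost in 15 of 22 alternatives, a sex term among them (adjusted p = 0.0641). Within the progenitor-like clusters that every group shared, Rbl1 was higher in mutant cells, as given below. In Tead1/2 it was 98.9 and 90.3 CPM in controls and 90.9, 79.6 and 82.8 CPM in mutants (-0.17, adjusted p = 0.132). Cdkn1b was 108 and 117 CPM in Tead1/2 controls and 81.2, 94.9 and 104 CPM in Tead1/2 mutants (-0.27, edgeR adjusted p = 0.0590), and 7 of 22 alternatives called it. Cdkn2c was 25.4 and 25.9 CPM in Tead1/2 controls and 16.8, 18.98 and 23.5 CPM in Tead1/2 mutants (-0.37, adjusted p = 0.0864), and 6 of 22 alternatives called it. Rb1 had log2 changes of 0.07 (95% interval -0.0405 to 0.178) and 0.03 (-0.0757 to 0.142), and was not called (edgeR adjusted p = 0.460 and 0.749).

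Of the other cell cycle genes of the granule lineage, 4 of 10 in the G1 list were called in each allele, and 2 (Insm1) and 3 (Tead1/2) of 19 in the mitosis and replication list, beside 20% and 21.9% of all tested genes. In both alleles Ccnd3 rose (log2 change 1.76 in Insm1 and 1.32 in Tead1/2), as did Ccnd1 (1.09 and 0.97) and Cdk6 (0.61 and 0.48), while Ccnd2 fell (-0.84 and -0.63). E2f2 was the 1 E2F gene called higher in both (0.68 and 0.53). Gas6, listed here by its growth arrest name alone, rose by 2.66 and 2.96, and Plk2, a stress-induced kinase, by 2.35 and 1.84. They are single genes of the antiproliferative and p53 lists, whose tallies in these cells are not given here. Of 19 mitosis and replication genes 1 rose and 1 fell in Insm1 (Cdk1 0.41, Pcna -0.36), and 1 rose and 2 fell in Tead1/2 (Aurka 0.44, Mcm5 -0.41, Pcna -0.51). Kcnq1ot1, the imprinted neighbour of Cdkn1c, rose by 0.21 in Insm1 (edgeR adjusted p = 0.0386) and by 0.21 in Tead1/2 (0.0406). Of the muscle list 21 and 33 of 36 tested genes rose.

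Progenitor-like and neuron-like cells were also compared apart, with the clusters named above differing between groups. In progenitor-like cells (19.9% of 15907 genes called in Insm1, 11.2% higher and 8.69% lower, and 23.5% in Tead1/2, 13.3% higher and 10.2% lower) Cdkn1c rose by 3.38 and 3.20 and Cdkn1a by 2.49 and 1.70. Rbl1 fell by 0.34 in Insm1 (edgeR adjusted p = 0.0117) and by 0.26 in Tead1/2 (0.0375): its values were 118 and 125 CPM against 101, 95.7 and 90.4 CPM, and 128 and 124 CPM against 119, 96.7 and 99.9 CPM. Cdkn2c fell by 0.50 in Tead1/2 (adjusted p = 0.0169), from 34.0 and 36.3 to 21.9, 23.9 and 28.8 CPM, and was not called in Insm1 (-0.29, 0.188). Beside these, 1 and 4 of 15 E2F and DREAM genes rose and fell in each allele, and 0 rose and 1 and 5 of 19 mitosis genes fell. Within the progenitor-like clusters that every group shared, Rbl1 lay the other way: in cluster 12 it was 87.4 CPM in Insm1 control and 109 CPM in Insm1 mutant cells, and 86.8 and 123 CPM in the Tead1/2 groups. In cluster 13 it was 126 and 155 CPM, and 132 and 170.1 CPM. Clusters 12 and 13 held only 15.6% and 5.56% of the progenitor-like cells of Insm1 mutants, and 24.6% and 4.51% of those of Tead1/2 mutants. Mki67 in cluster 12 was 910 and 1156 CPM in Insm1 control and mutant cells, and 857 and 1349 CPM in the Tead1/2 groups. In cluster 13 Mki67 was 1296 and 1327 CPM, and 1347 and 1689 CPM. The part of division in the Rbl1 values was not tested. In clusters 14 and 24, where most mutant cells and at most 9 control cells of a group lay, Rbl1 was 96.1 and 79.8 CPM in Insm1 mutants and 104 and 94.7 CPM in Tead1/2 mutants, so the fall over the class was not present within its shared clusters. Cdkn2c was higher in Tead1/2 mutant than control cells of cluster 12 (26.998 against 11.6 CPM). In cluster 13 it was lower in mutant cells (33.1 against 38.8 CPM), with overlapping counting intervals. These values sum the libraries of a group and were not tested. The Insm1 call of Rbl1 was lost in 3 of 21 alternatives, the Tead1/2 call of Rbl1 in 9 and that of Cdkn2c in 4.

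In neuron-like cells (28.0% of 14640 genes called in Insm1, 16.4% higher and 11.6% lower, and 23.7% in Tead1/2, 14.9% higher and 8.86% lower) Cdkn1c rose by 3.38 and 3.07 and Cdkn1a by 1.90 and 1.20. Cdkn2c rose by 1.16 in Insm1, from 3.602 and 4.58 to 8.09, 9.63 and 9.18 CPM, and by 0.78 in Tead1/2, from 4.05 and 4.83 to 5.51, 7.08 and 10.2 CPM. Rbl1 rose by 0.56, from 27.7 and 27.8 to 40.2, 40.8 and 41.5 CPM, and by 0.51, from 27.9 and 22.9 to 29.5, 38.1 and 40.9 CPM. In Tead1/2 mutants Cdkn1b fell by 0.38 and Cdkn2d by 1.07 (edgeR adjusted p = 0.0198 and 0.0293), the latter from 2.79 and 3.496 to 0.984, 1.68 and 1.73 CPM. Within neuron-like cluster 15 Rbl1 was 31.5 CPM in Insm1 control and 31.4 CPM in Insm1 mutant cells, and 27.7 and 29.5 CPM in the Tead1/2 groups. In cluster 21 it was 20.5 and 16.2 CPM, and 16.2 and 13.3 CPM. Cdkn2c was 4.79 and 4.76 CPM, and 4.95 and 3.59 CPM, in cluster 15. Cluster 17, with 74.6% and 51.7% of mutant but 0.994% and 1.78% of control neuron-like cells, had Rbl1 at 43.7 and 44.5 CPM and Cdkn2c at 10.1 and 10.4 CPM in mutant cells. The part of these shares in the rise over the class was not tested. Unnamed cluster 32, mostly mutant cells with granule neuron markers, lay outside the class. It had Rbl1 at 9.5 CPM, Cdkn2c at 1.79 CPM and Mki67 at 27.8 CPM. Cdkn1b in the Tead1/2 groups was 112 and 107 CPM in cluster 15 and 78.3 and 74.9 CPM in cluster 21, and 72.9 CPM in mutant cells of cluster 17. With a sex term Cdkn2d was not called there (edgeR adjusted p = 0.0514). Genes of division rose beside Cdkn2c and Rbl1: 18 and 14 of 19 mitosis genes were higher (median log2 change 1.51 and 1.26), with Cdk1 (2.77 and 2.35) and Bub1 (2.46 and 2.34) at the smallest p. Of 15 E2F and DREAM genes 8 and 7 were higher, and 1 was lower in Tead1/2. The unscaled mean of Mki67 went from 126 to 365 CPM and from 124 to 308 CPM. Within cluster 15 Mki67 was 156 CPM in Insm1 control and 114 CPM in Insm1 mutant cells, and 132 and 150 CPM in the Tead1/2 groups. In cluster 21 it was 57.5 and 23.2 CPM, and 76.2 and 20.7 CPM. Cluster 17 had 623 and 420 CPM, and 394 and 419 CPM. Of 21 alternatives the Insm1 call of Cdkn1a was lost in 1, and those of Cdkn2c and Rbl1 in 4 each. The Tead1/2 call of Cdkn1a was lost in 4 (log2 change down to 0.19, adjusted p up to 0.785, in cells without muscle transcripts), that of Cdkn1b in 5, of Cdkn2c in 10, of Cdkn2d in 7 and of Rbl1 in 5. Cdkn1c was called in all 21 in both alleles. Among cells with at most 15000 UMIs, an alternative chosen after seeing the data, the calls of Cdkn2c and Rbl1 were lost in both alleles (Cdkn2c 0.17 and -0.02, Rbl1 0.01 and 0.11).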

How the data were processed

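Bulk values were the expected counts per gene that the authors deposited from RSEM 1.3.3 after STAR 2.7.9a, with GRCm38.p6 and mm10 named, per the submitters' processing notes. Their 2 tables are named for the other allele, so columns were matched to samples by column name. Expected counts were rounded to whole numbers (6.85% to 8.79% of values were not whole), and 92 spike-in entries were left out. Single-cell values were the whole-number counts of UMIs per gene and cell that the authors deposited, with gene tables that name GRCm39.

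At P2 genes were tested with edgeR 4.0.16 (quasi-likelihood, TMM, filterByExpr) on the libraries of each allele, and the interaction on those of both. At P7 the libraries of both alleles were in a single fit. Each P7 contrast therefore shared its filter, TMM scaling and spread estimate with the other allele. The Benjamini-Hochberg adjustment covered all tested genes, and an adjusted p under 0.05 was called. Intervals are 95%. CPM are counts scaled to 1e+06 per library, by TMM where not called unscaled. DESeq2 1.42.0 was an alternative. At P7, barcodes with 1000 or more UMIs, 500 or more genes and a mitochondrial share below 15% were kept as cells, and the 4% of cells with the highest Scrublet score in each library were removed, because the automatic threshold marked 0% to 55.3% of cells. Cells were clustered with scanpy 1.11.5 (1998 of 2000 variable genes, the members left out, 30 components, 15 neighbours, Leiden resolution 1.0), clusters were named from preset markers, and counts were summed per library before testing. Differences from other cell type assignments may come from these rebuilt names. The models were tested on simulated data.

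Named genes were the members, the genes of each list with the smallest p or a call, and the most correlated genes. The members and lists were chosen with earlier results of these data known. Replicate numbers were not treated as pairs of samples (correlations of deviations from -0.131 to 0.227 at P2 and from -0.222 to 0.0671 at P7). At P7 the replicate number goes with the dissection, since library 1 of each group held all lobules and the others did not. P-values measure the spread between single pups. The ATAC-seq and CUT&RUN samples were not analysed here.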

Additional observations from a re-analysis of the deposited data

Results flagged for a closer look

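In 7 of 24 groups of 4 bulk libraries tested (8 members in Insm1 controls, Insm1 mutants and Tead1/2 mutants), 1 library lay far from the other 3, its gap to the nearest value being above Dixon's 95% critical share of the group's range. Chance gives about 1 in 20 such groups. The library labelled Tead1/2 mutant 4 was the distant one for 3 genes: Cdkn1c was 90.2 CPM there, with the nearest other mutant at 173 CPM, Cdkn1a was 28.6 CPM, with the nearest at 23.3 CPM, and Cdkn2d was 34.4 CPM, with the nearest at 32.1 CPM. Cdkn1b was 94.9 CPM in Tead1/2 mutant 1, with the nearest at 89.1 CPM. Among Insm1 mutants, Cdkn2c was 28.5 CPM in mutant 1 (nearest 23.7 CPM), Rb1 was 81.7 CPM in mutant 2 (nearest 74.0 CPM), and Rbl1 was 28.3 CPM in mutant 3 (nearest 27.1 CPM).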

How the results depend on the processing

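Of 1888 values of the members over all alternatives, 1777 stayed on their side of the threshold (91 of them, not called, had the other sign, the largest of size 0.403), 85 lost a call, 25 gained one, and 1 called value changed sign: Cdkn2c in neuron-like cells of Tead1/2 mutants, -0.0187 among cells with at most 15000 UMIs. In the P2 Tead1/2 comparison 0 members were called, but 1 without the low-count filter, 1 with a replicate block (Cdkn1c), and 2 with DESeq2 and without the library labelled mutant 4; leaving out 1 library gave 0 to 1. In the granule lineage the 2 members called in Tead1/2 became 4 without the filter, 4 with the dissection as replicate block and 5 with the unnamed clusters 11 and 32 added, and the 3 called in Insm1 became 1 without cells holding any muscle UMI; leaving out 1 library gave 2 to 4 and 2 to 3. In Tead1/2 progenitor-like cells 4 became 2 with no doublet removed (2 to 4 leaving out 1 library). In neuron-like cells the 4 called in Insm1 became 1 with the automatic doublet threshold, 2 without cells holding muscle transcripts and 2 at most 15000 UMIs (2 to 5 leaving out 1 library), and the 6 in Tead1/2 became 2, 2 and 3 (2 to 6). The mean of Cdkn1c in all muscle-like clusters of Insm1 mutants was 445 CPM, 486 CPM with no doublet removed and 1413 CPM in clusters 19 and 30 alone, and in Tead1/2 mutants 619 and 1259 CPM. The cause of these shifts was not tested. The share of all tested genes called in each alternative is not given beside these counts, so a general shift of calls is not shown apart. The dissection and replicate numbers do not pair animals, and 2 controls per allele limit the P7 tests.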
